A study of Mus musculus with 6 samples.

Results

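Rab3il1 and the small GTPases it acts on were followed through 6 RNA-seq libraries of mouse embryonic stem (ES) cells. The set held 8 of the 22602 genes in the deposited table, each taken by its gene name: the exchange factors Rab3il1 and Rab3ip, the 4 Rab3 GTPases Rab3a, Rab3b, Rab3c and Rab3d, and the Rab8 GTPases Rab8a and Rab8b. Rab3il1 was selected because its RNA was higher in Sim2-expressing cells in these same libraries, so its difference is described here without a test. The 7 partners were taken for their relation to Rab3il1.

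The study examined SIM2, a bHLH-PAS transcription factor encoded on human chromosome 21. The Sim2 group held 1 library from each of 3 clones, A6, B8 and C4, which carry Flag-tagged mouse Sim2 followed by an IRES and Venus under the hCMV*-1 promoter. In these cells the tetracycline-regulated transactivator tTA drives the promoter from the ROSA26 locus. The EB3 group held 3 cultures (0, 1 and 2) of a single line, the EBRTcH3 parental line, which lacks the Sim2 transgene but carries the Venus reporter. Both groups were grown on gelatin with serum and LIF and were kept 26 h without tetracycline, so the comparison is between lines and not between induced and uninduced cells. Each clone is a line of its own after drug selection, and differences between a clone and the parental line cannot be told apart from those of the transgene. For 3 libraries against 3, an exact permutation test cannot give a p below 0.1.

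Values are RPKM, reads scaled by cDNA length and by the library total, and differences are Sim2 minus EB3 on the log2(RPKM + 0.5) scale. The libraries held 25095861 to 28269340 reads. Sim2 was at 168 to 212 RPKM in the clones and at 0.0917 to 0.130 RPKM in EB3, so each library matched its label. The 8 ES cell markers summed to 3359 to 3566 RPKM in the clones and 3551 to 3969 in EB3. Library EB3-0 stood apart from the other EB3 libraries, with a median log2 ratio to their mean of 0.21 for cDNAs of 1000 to 2000 bases and −0.23 for those of 4000 to 6000 bases. EB3-1 and EB3-2 were close: their log2 values differed with an SD of 0.140 over the tested genes, against 0.223 to 0.396 for the other pairs within a group. The EB3 spread in the values below thus rests largely on EB3-0. The summed levels of neuronal and of primitive endoderm markers were separate between the groups, while those of fibroblast markers overlapped. The 7 neuronal markers in the table, 2 of them tested and 0 called, summed to 74.4 to 98.7 RPKM in the clones and 118 to 136 in EB3, and the 8 primitive endoderm markers, 2 tested and 0 called, to 17.7 to 41.2 and 11.2 to 14.9. A mean under 1 RPKM was found for 5 of the 7 neuronal and 6 of the 8 primitive endoderm markers, so these sums rest on few genes. The fibroblast markers summed to 11.2 to 14.5 and 10.6 to 13.9, with 2 of 8, Lum and Postn, at 0 in all libraries. Their part in the results below was not tested.

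Rab proteins are small GTPases that label membrane compartments and switch between a GDP-bound and a GTP-bound form. Exchange factors load them with GTP, GTPase-activating proteins return them to the GDP form, and GDP dissociation inhibitors hold them in the cytosol. Rab3il1, also called GRAB, and Rab3ip, also called Rabin8, share the Sec2 exchange domain. Both act on Rab8, and GRAB also acts on Rab3A. The Rab3 proteins serve regulated exocytosis, best known at synapses and in secretory cells, while Rab8A and Rab8B carry vesicles to the plasma membrane and to the primary cilium. On the route to the cilium, Rab11 recruits Rabin8, which activates Rab8.

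SIM2 binds DNA with ARNT at short motifs that share the core ACGTG, so the promoters of the members were read for it. The RefSeq promoter windows, 250 bases before to 50 after a transcript start (GRCm38.p6), held 13 windows for 8 of the 8 members, and each matched mm9 exactly and once. The windows below are shown because Rab3il1 and Rab3ip are the exchange factor pair, of which only Rab3il1 has CACGTG in a window. The first is Rab3il1 at mm9 chr19:10092434-10092733, plus strand. The second is Rab3ip at mm9 chr10:116387460-116387759, minus strand. Both run 5′ to 3′, and capitals mark CACGTG.
Rab3il1: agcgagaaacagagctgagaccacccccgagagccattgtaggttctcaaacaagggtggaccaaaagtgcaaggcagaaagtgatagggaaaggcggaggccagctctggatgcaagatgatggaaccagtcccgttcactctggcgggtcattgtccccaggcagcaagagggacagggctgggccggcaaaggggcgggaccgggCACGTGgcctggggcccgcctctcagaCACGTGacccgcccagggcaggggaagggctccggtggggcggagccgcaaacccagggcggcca
Rab3ip: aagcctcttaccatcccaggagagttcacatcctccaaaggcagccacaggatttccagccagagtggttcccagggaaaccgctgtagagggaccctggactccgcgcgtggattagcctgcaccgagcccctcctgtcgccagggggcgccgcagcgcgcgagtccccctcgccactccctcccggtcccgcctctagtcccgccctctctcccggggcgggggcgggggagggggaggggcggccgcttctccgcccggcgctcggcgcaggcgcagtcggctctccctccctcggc

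The Rab3il1 window held 2 copies of CACGTG, 42 and 15 bases before the transcript start. CACGTG is its own reverse complement and contains ACGTG on each strand, so each copy counts once for both motifs. The next Rab3il1 window, whose start lies at 10092741, overlaps the first and held the same 2 copies, at 99 and 72 bases before its start. The start of the gene in the deposited table, 10092718, lies between the starts of these windows. The other 3 Rab3il1 windows, with starts at 10076159, 10076215 and 10089537, held 0 copies of ACGTG on either strand. The windows of the 7 partners also held 0 copies. CACGTG is the E-box form of this core, and TACGTG is the form of the CNS midline element, the site type named for Sim. TACGTG was found in 0 of the 13 windows, Rab3il1 included, and in 3.23% of all windows. The copies in the Rab3il1 windows are thus of the E-box form only. Over all 32851 windows, 19.6% held ACGTG at least once, 7.15% held CACGTG at least once and 0.594% held CACGTG at least 2 times. Counted by gene, taking the window with most copies, the shares were 21.8%, 8.09% and 0.681%. The first Rab3il1 window was at 64.7% G and C, against a median of 52.7% for all windows. The partners' windows ran from 50.7% (Rab3c) to 71.7% (Rab3ip), and the Rab3il1 windows without CACGTG from 54.3% to 57.0%. A match is a stretch of letters and shows no binding, and binding of SIM2 or of any other factor to these copies was not examined here. Of the 135 other genes in the table with 2 or more CACGTG in a window, 118 were tested, and their median difference was −0.02 against −0.01 for all 11595 tested genes. By limma at an adjusted p of 0.05, 0 of these 118 were called higher and 1 was called lower, against 0.699% of all tested genes called in either direction. That gene was Fkbp6, an FK506-binding protein family member named after its values were seen, at 0.526 ± 0.336 RPKM in the clones and 3.06 ± 0.911 in EB3 (SD, n = 3 each; limma, adjusted p = 0.0367).

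Rab3il1 (mm9 chromosome 19, 10092718 to 10110076, plus strand) was at 15.7, 20.3 and 16.6 RPKM in clones A6, B8 and C4. It was at 4.37, 6.08 and 5.43 RPKM in cultures EB3-0, EB3-1 and EB3-2. These values rest on 916, 1211 and 1086 reads in the clones and on 277, 377 and 329 reads in EB3. All 3 clones were higher than all 3 parental cultures, with B8 the highest and EB3-0 the lowest. The group means were 17.5 ± 2.41 and 5.29 ± 0.859 RPKM (SD, n = 3 each), a difference of 1.64 on the log2 scale and a ratio of means of 3.31. The lowest clone stood 2.59 times above the highest EB3 culture, whereas the highest and lowest libraries within a group differed 1.29 times in the clones and 1.39 times in EB3. The selection of the gene used these values. Because each library came from a bulk culture, more cells with the transcript and more transcript per cell cannot be told apart.

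**Figure D1:**
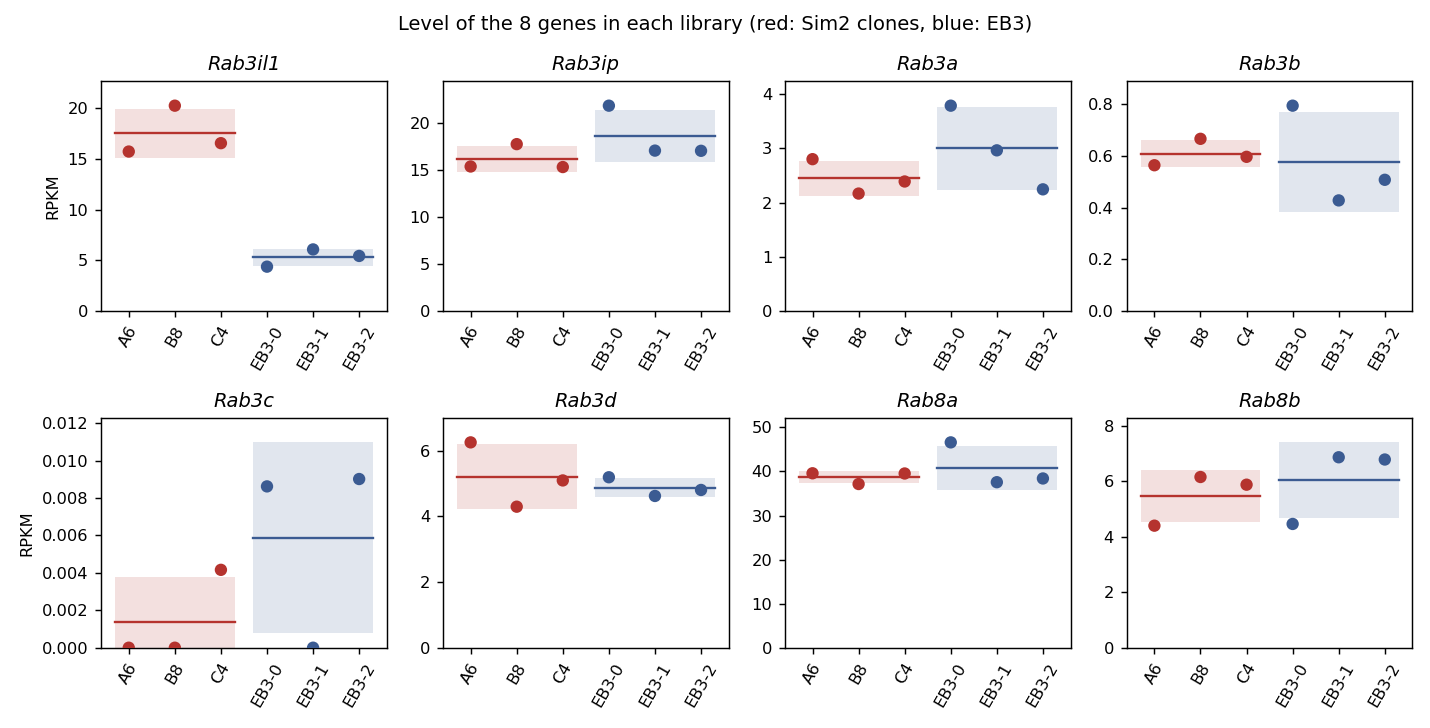
RPKM of each of the 8 genes (vertical axes, each from 0 and with its own scale) in the 6 libraries (horizontal axis). Points are libraries, lines are group means and bands are ± 1 SD (n = 3). The groups are separate for Rab3il1, at 15.7 to 20.3 against 4.37 to 6.08, and overlap in the other 7 panels.

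Rab3ip (chromosome 10, 116342840 to 116387436, minus strand), the other exchange factor, was at 15.4, 17.8 and 15.3 RPKM in A6, B8 and C4. In EB3-0, EB3-1 and EB3-2 it was at 21.9, 17.1 and 17.1 RPKM. The groups overlapped, with B8 above EB3-1 and EB3-2 and with EB3-0 the highest. The difference was −0.20 (95% interval −0.49 to 0.10; limma, adjusted p = 0.473; exact permutation p = 0.3, 2-sided). Rab3ip was thus not shown to differ, and a fall of up to 0.49 lay within the interval. Without EB3-0 the difference was −0.08 (limma, adjusted p = 0.631).

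The order of the exchange factors was not the same in the groups. In EB3, Rab3ip was the more abundant per length, and the ratio of Rab3il1 to Rab3ip was 0.200, 0.355 and 0.318 in EB3-0, EB3-1 and EB3-2. In clones A6, B8 and C4 the ratio was 1.02, 1.14 and 1.08, so Rab3il1 was level with or slightly above Rab3ip in all 3. Rab3il1 made up 50.5% to 53.2% of the summed RPKM of both exchange factors in the clones and 16.7% to 26.2% in EB3. The sum itself was 33.7 ± 3.79 RPKM in the clones and 24.0 ± 2.00 in EB3 (SD, n = 3 each), with ranges of 31.1 to 38.0 and 22.5 to 26.3. As Rab3il1 was selected for its rise, these ratios and sums are a description. The coding sequences of the pair were 62.4% identical over 1110 aligned bases, and no stretch of 300 bases at 85% identity or more was found elsewhere in the genome for any of the 8 genes.

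**Figure D2:**
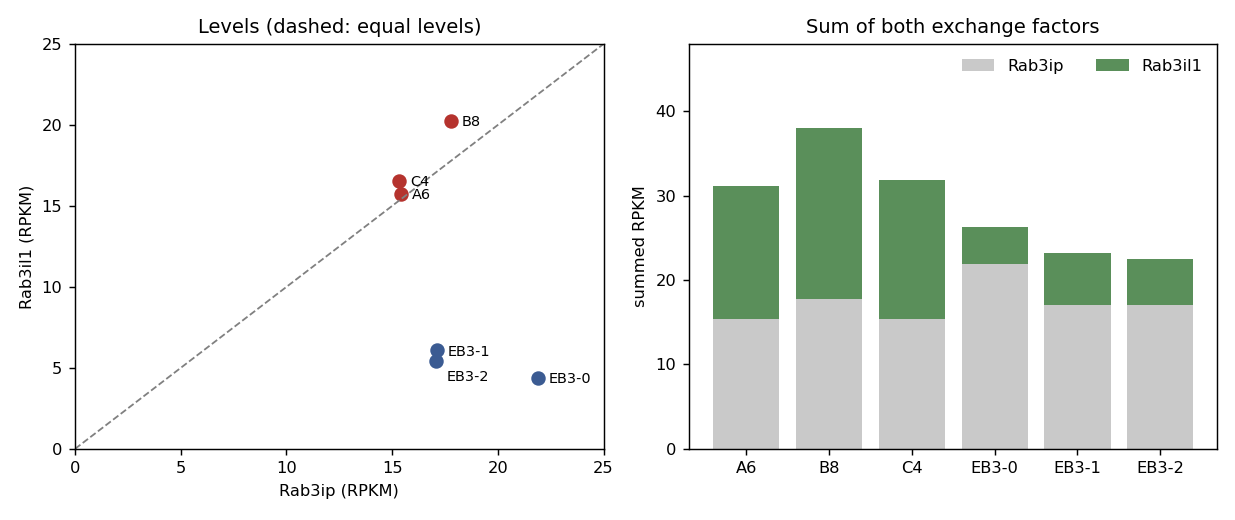
Left, Rab3il1 against Rab3ip in RPKM, with 1 point for each library (red, clones; blue, EB3) and a dashed line where both are equal. Right, both levels stacked for each library, with summed RPKM on the vertical axis. The clones lie at or above the line with ratios of 1.02 to 1.14, and the EB3 libraries lie far below it at 0.200 to 0.355.

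The Rab3 GTPases were led by Rab3d, known from secretory granules of exocrine cells. Rab3d (chromosome 9, 21711955 to 21722565, minus strand) was at 6.25, 4.30 and 5.10 RPKM in A6, B8 and C4, and at 5.19, 4.62 and 4.81 in EB3-0, EB3-1 and EB3-2. The clones enclosed the range of the EB3 cultures, with A6 the highest and B8 the lowest of the 6 libraries. The difference was 0.08 (95% interval −0.29 to 0.44; limma, adjusted p = 0.842; exact permutation p = 0.8).

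Rab3a (chromosome 8, 73278578 to 73282585, plus strand), the main Rab3 protein of synaptic vesicles, was at 2.80, 2.17 and 2.39 RPKM in the clones in the same order. In EB3 it was at 3.79, 2.96 and 2.24 RPKM. The groups overlapped, since EB3-2 lay below A6 and C4. The difference was −0.23 (95% interval −0.68 to 0.22; limma, adjusted p = 0.595; exact permutation p = 0.4). With 1 library left out it ran from −0.07, without EB3-0, to −0.39, without EB3-2. Rab3a overlaps the listed gene Mpv17l2, on the other strand, by 38 bases, and how the counting treated strand is not given in the sources used here.

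Rab3b and Rab3c were too low for the test, whose filter was a mean of at least 1 RPKM over the 6 libraries. Rab3b (chromosome 4, 108551675 to 108615929, plus strand) was at 0.564, 0.666 and 0.597 RPKM in the clones and at 0.795, 0.428 and 0.508 in EB3, on 38 to 72 reads. All 3 clones fell between EB3-2 and EB3-0. It shares 482 bases with 8030443G20Rik on the other strand, so some of its reads may belong to that gene. Rab3c (chromosome 13, 110844396 to 111070414, minus strand) had 0, 0 and 1 reads in the clones and 2, 0 and 2 in EB3. Every library was under 3 reads, the limit used here, which for Rab3c is 0.0141 RPKM in A6. As both mates of a pair appear to be counted, this limit is in reads and not in independent molecules. Rab3c was therefore under the limit in both groups, and its absence was not shown.

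Rab8a (chromosome 8, 74685099 to 74705265, plus strand) was the most abundant of the 8 genes. It was at 39.6, 37.2 and 39.5 RPKM in A6, B8 and C4, and at 46.6, 37.6 and 38.4 in EB3-0, EB3-1 and EB3-2. EB3-0 was the highest, and the other 5 libraries lay within 37.2 to 39.6. The difference was −0.07 (95% interval −0.31 to 0.17; limma, adjusted p = 0.776; exact permutation p = 0.8), the narrowest interval among the partners.

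Rab8b (chromosome 9, 66691471 to 66767512, minus strand), the close relative of Rab8a, was at 4.40, 6.16 and 5.88 RPKM in the clones. In EB3 it was at 4.47, 6.87 and 6.79 RPKM. A6 and EB3-0 were both low, so the spread lay within the groups rather than between them. The difference was −0.12 (95% interval −0.58 to 0.34; limma, adjusted p = 0.797; exact permutation p = 0.5). Without EB3-0 it was −0.31 (limma, adjusted p = 0.269).

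Of the 7 partners, 5 were tested and 0 were called by limma at an adjusted p of 0.05. Over all tested genes 0.699% were called, so a count of 0 among 5 is close to the background. At an unadjusted p of 0.05 the partners counted 0 of 5, against 17.8% of all tested genes, and 0 of 5 had groups that did not overlap, against 26.1%. Their median difference was −0.12, with a range of −0.23 to 0.08, and the median of all tested genes was −0.01. The upper ends of the 5 intervals lay between 0.10 and 0.44, below the difference of 1.64 described for Rab3il1.

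Summed over genes, the Rab3 GTPases were at 8.28 ± 1.26 RPKM in the clones and 8.45 ± 1.17 in EB3. The Rab8 GTPases were at 44.2 ± 1.08 and 46.9 ± 3.63 RPKM (SD, n = 3 each). Rab8a made up 87.6 ± 2.16% of the Rab8 sum in the clones and 86.9 ± 3.76% in EB3, and Rab3d made up 62.8 ± 2.39% and 58.1 ± 5.23% of the Rab3 sum. These shares differed by less than 1 SD of the EB3 libraries. Within a library, Rab8 exceeded Rab3 by 5.42 ± 0.770 times in the clones and 5.58 ± 0.378 times in EB3.

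Per length, the order of the levels in EB3 was Rab8a, Rab3ip, Rab8b, Rab3il1, Rab3d, Rab3a, Rab3b and Rab3c. The ranges over the 3 libraries were separate between neighbours except for Rab8b with Rab3il1 and Rab3il1 with Rab3d. Within libraries, Rab8b was above Rab3il1 in all 3, and Rab3il1 was above Rab3d in 2 of 3. In the clones Rab3il1 stood second after Rab8a. There its range overlapped that of Rab3ip, although it was above Rab3ip in each of the 3 libraries, and Rab8b overlapped Rab3d. The other neighbours were separate. The place of Rab3il1 follows from the values it was selected on. The coding sequences were 74.4% to 78.0% identical among the Rab3 genes, 77.6% between Rab8a and Rab8b and 60.3% to 64.5% between a Rab3 and a Rab8 gene.

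The genes that act with Rab3 and Rab8 were taken as 6 lists of 79 genes in all, of which 61 were tested and 0 were called in either direction (limma). At an unadjusted p of 0.05, 9 of the 61 were counted, or 14.8%, against 17.8% of all tested genes. The groups did not overlap for 17, or 27.9%, of which 11 were higher in the clones and 6 lower, against 26.1%. The shares were close to the background, and the median difference was 0.04.

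Among the regulators, 15 of 19 were tested. Gdi2, a GDP dissociation inhibitor, was at 166 to 179 RPKM in the clones and 201 to 213 in EB3, a difference of −0.25 (limma, adjusted p = 0.170). Rabggtb, the beta subunit of the geranylgeranyl transferase that attaches lipid to Rab proteins, was at 81.7 to 95.1 and 102 to 116 RPKM, a difference of −0.28 (limma, adjusted p = 0.192). The clones lay below EB3 for both, and neither passed the test. They were the only regulators at an unadjusted p under 0.05.

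The effectors differed in both directions, from −0.22 to 0.14 on the Rab3 list and from −0.49 to 0.51 on the Rab8 list. Of the 11 genes on the Rab3 effector list, 4 were tested. The 2 most abundant of these, Rims3 and Rims2 of the RIM family, differed by 0.01 and −0.05 (limma, adjusted p = 0.987 and 0.914). Of the 14 Rab8 effectors, 12 were tested. Ehd1, a membrane-remodelling ATPase of endocytic recycling and early cilium assembly, was at 131 ± 4.76 RPKM in the clones and 108 ± 9.46 in EB3 (SD, n = 3 each) (difference 0.27; limma, adjusted p = 0.180). Without EB3-0 the Ehd1 difference was 0.34 and was called (limma, adjusted p = 0.0321), in a fit that called 692 of 11599 genes over the whole table. Rilpl1, a Rab8 effector at the cilium base, was at 13.2 to 14.3 RPKM in the clones and 12.2 to 12.3 in EB3 (difference 0.14; limma, adjusted p = 0.490). Micall1, which joins Rab8 to recycling endosomes, and Mical1, an oxidase acting on actin, were named after their values were seen and lay on opposite sides, at 0.51 and −0.49 (limma, adjusted p = 0.143 and 0.142).

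In the Rab11 and TRAPPII list, which acts before Rabin8 on the route to the cilium, all 13 genes were tested. The largest difference in the 6 lists was that of Rab11fip5, a Rab11 effector, which was named after its values were seen. It was at 4.08, 5.66 and 2.98 RPKM in A6, B8 and C4 and at 1.38, 1.95 and 2.07 in EB3, a difference of 1.02 that did not pass the test (limma, adjusted p = 0.0902). All 3 clones lay above all 3 EB3 cultures. In the list the groups did not overlap for 3 of the 13 genes (23.1%), all higher in the clones. Over all tested genes the share without overlap, in either direction, was 26.1%. Trappc4 and Trappc3, the most abundant genes of the list, differed by −0.06 and −0.09 (limma, adjusted p = 0.870 and 0.740).

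The exocyst tethers secretory vesicles to the plasma membrane, and all 9 of its genes were tested. Exoc4 was at 30.7 ± 1.65 RPKM in the clones and 28.5 ± 5.52 in EB3, and Exoc1 at 18.2 ± 1.82 and 18.4 ± 1.68 (SD, n = 3 each). Exoc6b, a Sec15 homologue and named after its values were seen, was at 10.8 to 12.6 RPKM in the clones and 7.54 to 8.91 in EB3 (difference 0.48; limma, adjusted p = 0.105). Of the 13 genes of regulated secretion, 8 were tested. The vesicle SNARE Vamp2 and its partner Stx1a differed by −0.03 and −0.18 (limma, adjusted p = 0.912 and 0.548). Unc13a, a vesicle priming factor, and Syn1, a synaptic vesicle protein, were higher in each clone than in each EB3 culture and did not pass the test, at 0.63 and 0.49 (limma, adjusted p = 0.0972 and 0.129). Both were named after their values were seen.

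**Figure D3:**
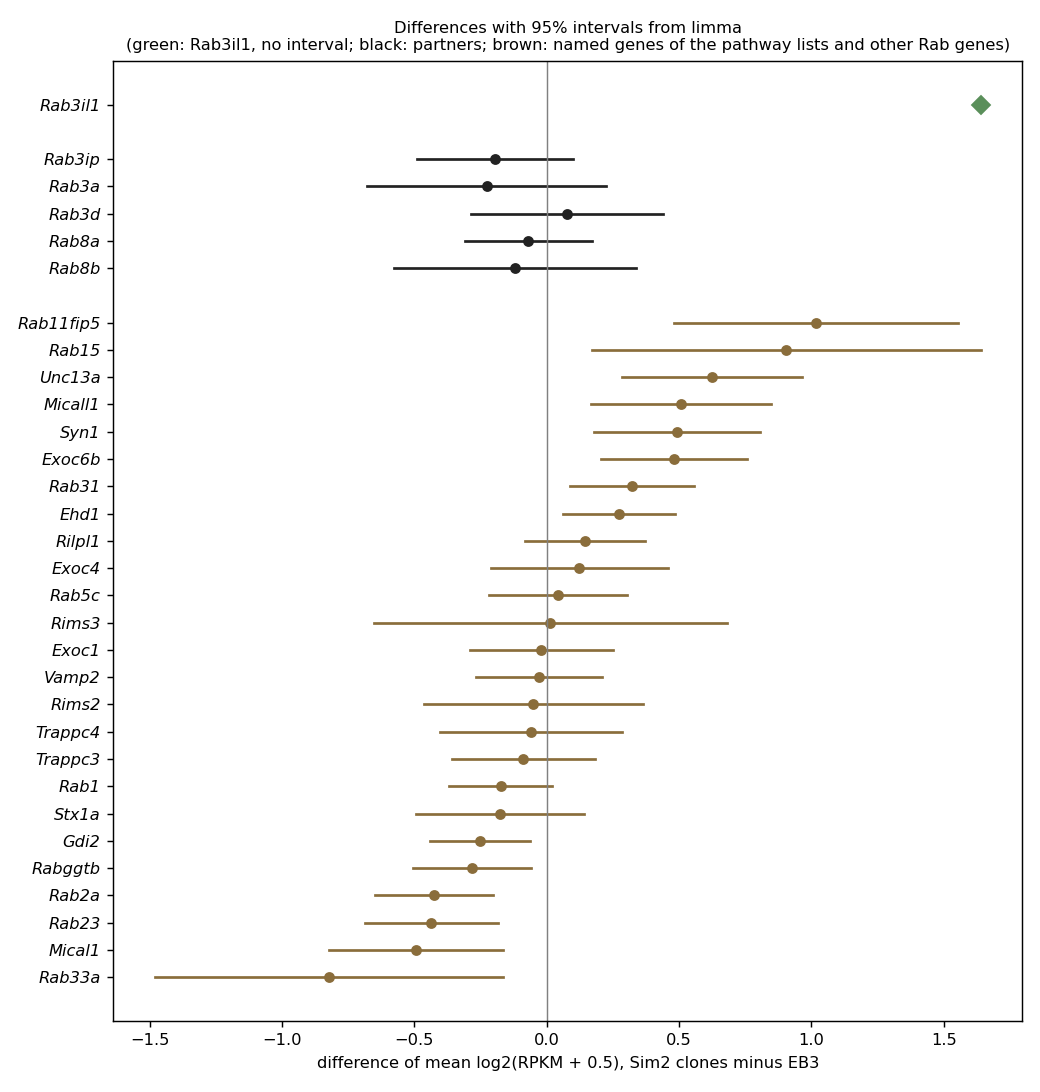
Difference of the mean log2(RPKM + 0.5), Sim2 clones minus EB3 (horizontal axis), for Rab3il1, its 5 tested partners and the named genes of the pathway lists and of the Rab family. Dots are differences and lines are 95% intervals from limma, not adjusted for the number of genes. The 5 partner intervals all include 0, Rab3il1 stands at 1.64 without an interval because it was selected on this comparison, and the other named genes lie between −0.82 and 1.02.

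The remaining Rab family, 51 genes, was used to place the partners. Of these, 39 were tested and 0 were called, with a median difference of −0.01. At an unadjusted p of 0.05 there were 5 (12.8%), and for 9 (23.1%) the groups did not overlap, 2 higher and 7 lower in the clones, against 17.8% and 26.1% of all tested genes. Rab1 and Rab5c, the most abundant, differed by −0.17 and 0.04 (limma, adjusted p = 0.329 and 0.882). Rab1 acts between the endoplasmic reticulum and the Golgi apparatus, and Rab5c on early endosomes. The smallest adjusted p was that of Rab2a, a Golgi Rab named after its values were seen, at 28.1 to 31.8 RPKM in the clones and 37.0 to 43.1 in EB3 (difference −0.43; limma, adjusted p = 0.0878). The fit without EB3-0 called 692 of 11599 genes over the whole table, 2 of them among the 39 tested Rab genes. In it, Rab2a was called at −0.49 and Rab18, also named after its values were seen, at −0.38 (limma, adjusted p = 0.0310 and 0.0294). Rab15, named in the same way, had the largest difference, 0.91, and it rested on B8 at 17.7 RPKM, with A6 at 10.1, C4 at 6.02 and EB3 at 4.95 to 5.74 (limma, adjusted p = 0.199).

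The genes around Rab3il1 on chromosome 19 were compared, 10 on each side. Of these 20, 14 were tested and 0 were called (limma). For 4 of the 14 (28.6%) the groups did not overlap, all higher in the clones. Over all tested genes the share without overlap, in either direction, was 26.1%. The median difference of the 14 was 0.09. The nearest genes were too low for the test. Best1, an anion channel gene 16594 bases before the listed start of Rab3il1, had 23, 22 and 30 reads in A6, B8 and C4 and 20, 7 and 10 in EB3. RefSeq transcripts of Rab3il1 also start at 10076159 and 10076215, beside the listed end of Best1, a minus-strand gene, at 10076123. Fads3, a fatty acid desaturase gene 5961 bases after Rab3il1, had 41, 28 and 26 reads in the clones and 13, 7 and 17 in EB3. Both differences were higher in the clones, at 0.42 and 0.44, with no overlap, and with no filter on low values neither was called (limma, adjusted p = 0.203 and 0.159). Fads2 and Fads1, the next genes after Fads3, were named after their values were seen. They differed by 0.38 and 0.21 (limma, adjusted p = 0.256 and 0.290), again higher in the clones with no overlap. Best1, Fads3, Fads2 and Fads1 thus form a run next to Rab3il1. With no filter on low values they were the 4 of 19 neighbours at an unadjusted p under 0.05 (limma), against 2710 of all 17963 genes in that fit. With the filter the count was 1 of 14. It was 0 of 14 with the trend on cDNA length removed, without B8 or without C4. The cause was not tested. The log2(RPKM + 0.5) scale understates the change of genes as low as Best1 and Fads3: the ratio of mean RPKM was 2.06 for Best1 and 2.62 for Fads3, against 3.31 for Rab3il1. None of these neighbours passed the test.

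**Figure D4:**
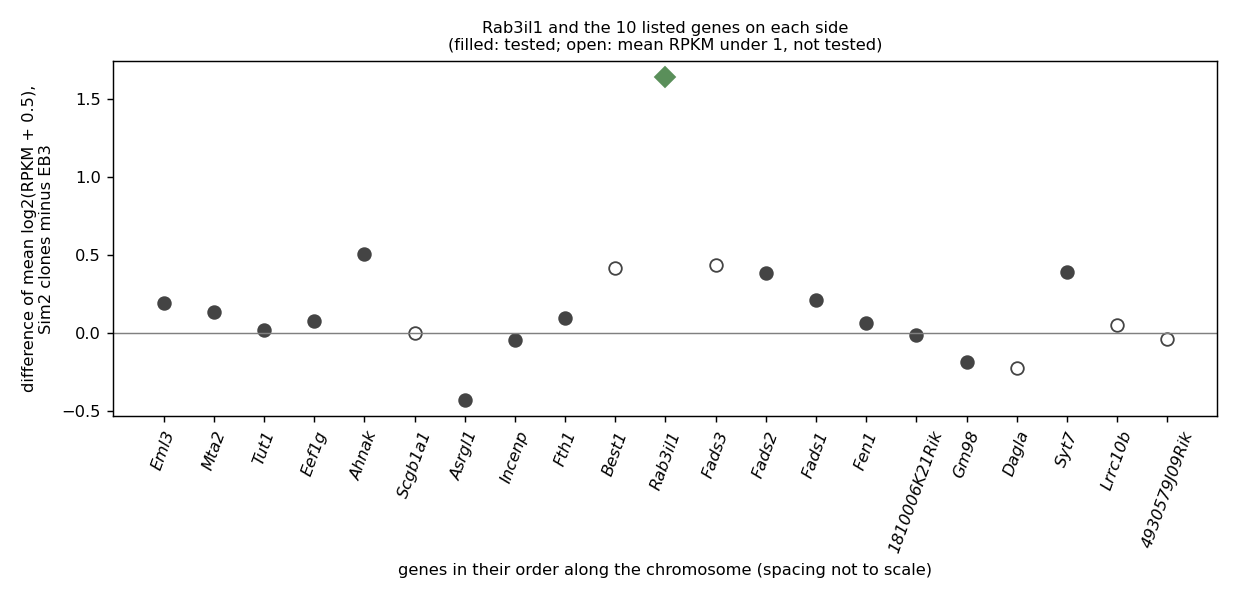
Difference of the mean log2(RPKM + 0.5), Sim2 clones minus EB3 (vertical axis), for Rab3il1 (green) and the 10 listed genes on each side in chromosome order. Filled points were tested, open points had a mean RPKM under 1. Rab3il1 stands at 1.64 and the 20 neighbours lie between −0.43 and 0.51, on a scale that understates the low genes: Best1 and Fads3, at 0.42 and 0.44, have ratios of mean RPKM of 2.06 and 2.62, against 3.31 for Rab3il1.

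The profiles most like that of Rab3il1 were sought over the 6 libraries, as the smallest root mean square difference of log2 values after each gene was centred on its own mean. Among 11594 other tested genes the median of this measure was 0.85. The 5 closest were Trim54 at 0.26, Limch1 at 0.27, Stambpl1 at 0.27, Cbr3 at 0.28 and Nkx6-3 at 0.29. Cbr3, a carbonyl reductase, was at 103 ± 6.20 RPKM in the clones and 37.0 ± 5.90 in EB3. Nkx6-3, a homeobox gene, was at 40.6 ± 4.64 and 11.3 ± 1.23 RPKM (SD, n = 3 each). Trim54 had its highest level in B8, as did Rab3il1, at 4.13 RPKM against 2.68 in A6 and 2.49 in C4. Any gene with a like difference between the groups scores well on this measure.

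**Figure D5:**
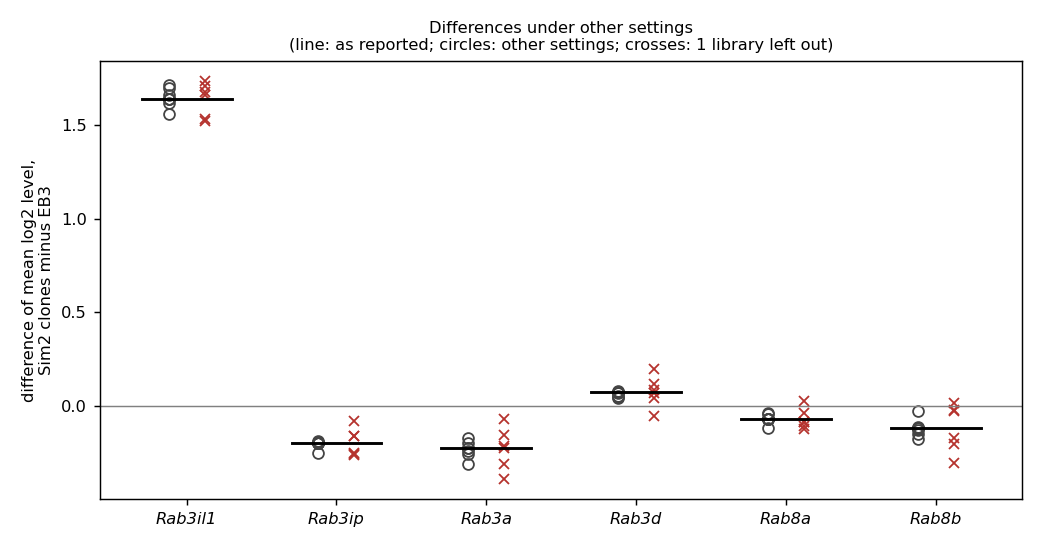
Difference of the mean log2 level, Sim2 clones minus EB3 (vertical axis), for Rab3il1 and the 5 tested partners under other settings. Lines are the values given in the text, circles are other pseudocounts, filters and normalizations, and crosses leave out 1 library. Rab3il1 stays between 1.52 and 1.74, and the partners between −0.39 and 0.20.

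The difference of Rab3il1 was 1.52 to 1.74 with 1 library left out at a time, the lowest of these being the fit that drops EB3-0. Taking the mean of EB3-1 and EB3-2 as a single library gave 1.70, and with the trend on cDNA length removed from each library it was 1.66. EB3-0 differed from the mean of the other EB3 cultures by −0.36 for Rab3il1, 0.35 for Rab3ip, 0.48 for Rab3a, 0.29 for Rab8a and −0.56 for Rab8b. The partners' differences were within 0.39 of 0 under all of these settings, and 0 of them were called.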

How the data were processed

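Total RNA of 6 cultures was made into TruSeq libraries and sequenced as paired reads. The authors aligned the reads to mm9 with BWA (version not given in the sources used here), took reads over exons with a custom pipeline, and deposited 1 RPKM value per gene and library. For 100% of values the RPKM steps gave whole reads within 0.1 of a read, and the read totals here come from them. In library A6, 742 genes had 2 reads and 199 had 1, a pattern that separate counting of paired mates would give. Reads are therefore not independent molecules, and limits from counts cover counting error only. How multi-mapping reads and strand were treated is not given in the sources used here.

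Samples were grouped by clone or parental line as labelled. Genes with a mean of at least 1 RPKM (11595, 51.3% of 22602) were fitted with limma (version 3.58.1, R 4.3.3) on log2(RPKM + 0.5) by lmFit and eBayes with a trend, with Benjamini-Hochberg adjustment over all tested genes and a threshold of 0.05. Such differences understate the change of low genes. For each tested partner, group means were also compared by an exact permutation test, 2-sided. The script was tested on simulated data. The members and all gene lists were chosen with earlier results of these data known. Named genes were the members, Sim2, the called genes of each list or else its 2 most abundant tested genes, the nearest neighbour on each side and the 5 profiles most like Rab3il1, and genes named outside this rule are marked as named after their values were seen. Promoter windows came from RefSeq (GRCm38.p6) and were placed in mm9 by exact string match. Copies in the genome were sought with blastn 2.17.0, and coding sequences were aligned with Biopython 1.88. Where nothing says otherwise, the p-values measure the spread between these libraries, and the clones are separate lines while the EB3 libraries are cultures of 1 line. EB3-1 and EB3-2 differed in reads per gene by a mean chi-square of 2.78, where counting both mates alone gives about 2, and other pairs within a group by 12.4 to 78.4, so they were kept as separate libraries and also averaged.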

Additional observations from a re-analysis of the deposited data

How the results depend on the processing

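The count of 0 called among the partners held under all 14 alternatives. The difference of Rab3il1 was 1.56 to 1.71 where no library was left out. Its sign could not turn when a library was dropped, since every clone lay above every EB3 culture and the gene was selected for this rise. Another filter, or eBayes without a trend, leaves the difference at 1.64 by construction. The number of genes called over the whole table was far less stable: it was 81 as reported, 6 with EB3-1 and EB3-2 averaged, 231 with the trend on cDNA length removed, 30 with eBayes without a trend and 28 with no filter on low values. With 1 library left out it ran from 6 (without EB3-1, or without EB3-2) to 692 (without EB3-0), with 20 without A6, 17 without B8 and 7 without C4. Leaving out EB3-0, where 692 of 11599 tested genes were called, also gave calls in lists that had 0 in every other fit. These were 2 of 39 among other Rab genes (Rab18 and Rab2a) and 1 of 61 among the pathway lists (Ehd1). Among the neighbours of Rab3il1 it was 1 of 14 (Eef1g, a translation elongation factor subunit). Rab18 and Eef1g were named after their values were seen. The cause was not tested. 3 partner differences changed sign with 1 library left out: Rab3d, −0.0515 to 0.20, was negative without A6. Rab8a, −0.13 to 0.0282, was positive without EB3-0. Rab8b, −0.31 to 0.0181, was positive without A6. The adjusted p of the partners over the alternatives ran from 0.269 to 0.979 (limma). No paired analysis was possible because the clones and the EB3 cultures share no replicate numbers. With 3 libraries a group, differences such as the interval of Rab8b, −0.58 to 0.34, could not be resolved further.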
